A study of Mus musculus with 9 samples.

Results

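The sirtuins are a family of enzymes that remove acetyl and other acyl groups from lysines, or transfer ADP-ribose, and that consume NAD in doing so. All 7 mouse members, Sirt1 to Sirt7, were taken by gene symbol from the 55414 genes listed, and all 7 were among the 25128 genes that held at least 10 counts over the 9 libraries and were tested. RNA was sequenced from round spermatids (RS cells), the haploid cells that follow meiosis, in 3 groups of 3 libraries. For 24 h the cells were kept in medium with 0.15% DMSO alone (vehicle; libraries 1, 2 and 3), with 24 mM oxamate, an inhibitor of all lactate dehydrogenases (libraries 4, 5 and 6), or with 24 mM oxamate plus 0.3 mM octyl-L-2HG, a membrane-permeable ester of L-2-hydroxyglutarate (libraries 7, 8 and 9). Cells of every group came from the testes of adult Stra8-Tom mice on a C57Bl/6 background, in which a Stra8-driven iCre switches on a CAG-driven tdTomato reporter in germ cells, and were sorted by their falling red fluorescence. The labels do not say whether the libraries of a group came from separate animals, so the p-values measure the spread between these libraries, which may be technical.

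Sirtuins differ in where they work. SIRT1, SIRT6 and SIRT7 are mainly nuclear and act on histones, transcription factors and, for SIRT7, ribosomal DNA, SIRT2 is mainly cytoplasmic and deacetylates tubulin, and SIRT3, SIRT4 and SIRT5 lie in mitochondria, where SIRT3 is the main protein deacetylase. In the mouse testis SIRT1 is known for its part in germ cell development, since males that lack it are subfertile or sterile. Lactate dehydrogenase oxidises NADH to NAD when it reduces pyruvate, and sirtuins use NAD as a substrate.

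Total counts ranged from 32339533 to 39888396 per library. All 16 round spermatid markers were detected at a mean of at least 1 CPM (raw count scaled to the library total), and their summed level ran from 3510 to 3616 CPM with vehicle, from 3351 to 3445 with oxamate and from 3061 to 3080 with oxamate + octyl-L-2HG. The 10 pachytene spermatocyte markers summed to 663 to 769 CPM over the 9 libraries. Those of Sertoli cells (2.02 to 2.86), Leydig cells (0.647 to 1.12), peritubular myoid cells (2.23 to 3.21) and macrophages (3.60 to 5.13) stayed far lower, and the Sertoli marker Sox9 had a mean of 0.033 CPM. At these low levels some groups did not overlap. Leydig sums were 0.846 to 1.10 with vehicle and 0.647 to 0.82 with oxamate, and macrophage sums 4.26 to 5.13 and 3.89 to 3.92. Myoid sums were 2.65 to 2.75 with vehicle, 2.83 to 3.21 with oxamate and 2.23 to 2.63 with oxamate + octyl-L-2HG. Of the 9 spermatogonium markers, 4 reached a mean of 1 CPM, with a sum that was nearly all Dmrtb1 (mean 864). That sum was 789 to 892 CPM with vehicle, 794 to 925 with oxamate and 899.7 to 1003 with oxamate + octyl-L-2HG, so that vehicle and the combined treatment did not overlap. Oxamate library 4 stood furthest from the other libraries of its group, so sirtuin differences that moved by over 1.5 times without it are given both ways, with the range over the other leave-out fits where these moved them as far. On the main axis of the spread within groups, vehicle library 1 (0.425) lay on the same side as oxamate library 4 (0.689). Vehicle libraries 2 and 3 lay on the other side (-0.236 and -0.189). The part of the marker shift between groups in any result below was not tested.

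Sirt1 and Sirt3 were the sirtuins whose RNA differed between groups, and they moved in opposite directions. Stretches upstream of an annotated start site of each are shown first, as sequences next to the 2 genes whose RNA moved. They were read from RefSeq on GRCm38.p6, another build than the GRCm39 of the counts, on the minus strand from 5′ to 3′. The capitals mark the E-box CACGTG and the GC box GGGCGG (read on the other strand as CCGCCC). Bases annotated as untranslated in any transcript were left out, which removed the 15 bases next to the Sirt1 start site. Of the 250 bases before the second Sirt3 start site this removed 152, annotated as untranslated exons of Psmd13 on the opposite strand, so the Sirt3 stretch is the remainder of a window shared with Psmd13. The Sirt1 stretch lies at chr10:63339051-63339285, and the Sirt3 stretch, directly before the second of its start sites, at chr7:140881870-140881967.
Sirt1: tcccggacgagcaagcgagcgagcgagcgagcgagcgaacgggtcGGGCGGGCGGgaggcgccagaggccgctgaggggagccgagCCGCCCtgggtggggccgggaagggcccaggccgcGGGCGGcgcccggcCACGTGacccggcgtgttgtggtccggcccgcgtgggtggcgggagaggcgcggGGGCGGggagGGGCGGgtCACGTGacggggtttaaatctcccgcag
Sirt3: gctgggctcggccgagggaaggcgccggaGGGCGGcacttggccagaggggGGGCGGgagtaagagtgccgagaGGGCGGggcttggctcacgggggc
The whole 250 bases before the Sirt1 start held 2 E-boxes, the letters that MYC and CLOCK family factors recognise, and 6 GC boxes. An E-box stood in 6.02% and a GC box in 32.7% of 32851 mouse promoters of the same length. None of the other 6 sirtuins had an E-box in any window, while the second Sirt3 window held 3 GC boxes and the first none. The windows of Sirt2, Sirt5 and Sirt7 and the second of Sirt6 held 1 GC box each. The Sirt1 window was 79.2% G or C with 39 CpG sites, against medians of 52.4% and 6 CpG sites over all promoters. The first Sirt3 window was 62.4% and the second 64.4% G or C. The core letters of a cAMP response element (TGACG, in 17.8% of promoters) overlapped the E-box nearer to the Sirt1 start. TGACG also stood in the first Sirt3 window and in that of Sirt4. These matches describe the letters only, and neither the start site used in RS cells nor any link to the RNA levels was tested.

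Per length of transcript, the 7 sirtuins covered about 3 orders of magnitude. Levels here are normalised read counts per kilobase of the longest annotated transcript, averaged over the 9 libraries. Sirt2 was highest at 916 ± 50.4 (SD, n = 9 libraries), above 88.0% of the 25032 genes with a known length. Sirt4, a mitochondrial ADP-ribosyltransferase and lipoamidase, followed at 614 ± 33.5, and Sirt3 at 367 ± 66.3. Sirt1 was far lower at 71.9 ± 10.4, and Sirt5, which removes succinyl and malonyl groups, lower again at 37.6 ± 5.06. Sirt7 (3.16 ± 0.995) and Sirt6 (0.922 ± 0.591) were close to the limit of detection. Neighbours in this order did not overlap over the 9 libraries, except for Sirt7 (1.40 to 4.61) and Sirt6 (0 to 2.04). The cytoplasmic Sirt2 and 2 of the 3 mitochondrial members therefore headed the order, and Sirt1 was the highest of the nuclear members.

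**Figure D1:**
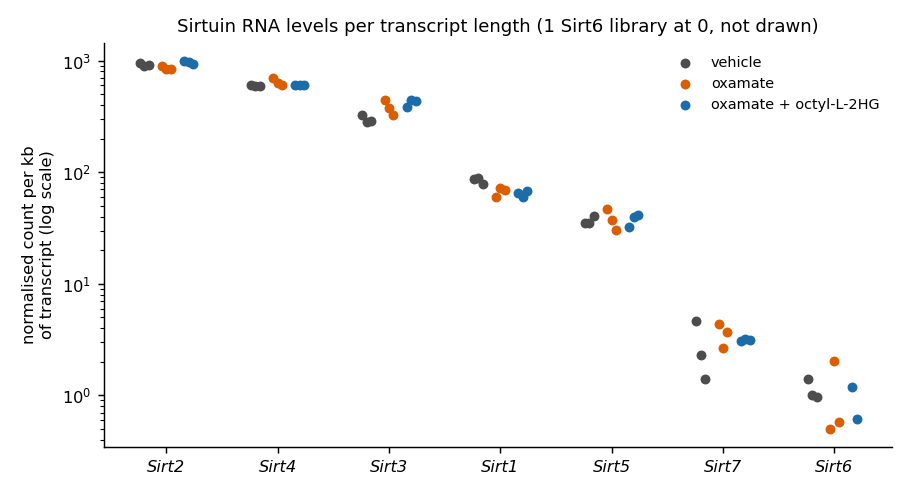
Normalised count per kilobase of transcript (log scale) for each sirtuin in each library, coloured by group. Sirt2, Sirt4 and Sirt3 lie highest, Sirt7 and Sirt6 lowest, and the single Sirt6 library at 0 is not drawn.

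Sirt1 RNA was lower in every library that had received oxamate than in every vehicle library. Its normalised read counts were 382, 389.5 and 348 with vehicle. They were 266, 318 and 309 with oxamate alone. With oxamate + octyl-L-2HG they were 286, 264 and 302. The oxamate and the combined libraries lay in the same range, below the vehicle libraries. Of all genes, 9.95% lay below vehicle without overlap with oxamate and 18.5% with oxamate + octyl-L-2HG. Group means were 373 ± 22.1, 298 ± 27.8 and 284 ± 19.3 (SD, n = 3 each).

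Between oxamate + octyl-L-2HG and vehicle, Sirt1 fell by 0.41 on the log2 scale (SE 0.098, edgeR adjusted p = 0.00468), to 0.752 times the vehicle level. Between oxamate alone and vehicle the log2 difference was -0.32 (95% confidence interval -0.53 to -0.12), which did not pass the threshold of 0.05 (adjusted p = 0.055). The 2 oxamate-treated groups differed by -0.087 (interval -0.30 to 0.12, adjusted p = 0.676), and with 1 library left out this ran from -0.16 (without oxamate library 4) to -0.036 (without oxamate library 5 or combined library 8). The first of these results passed in all 18 alternatives tried, with log2 values from -0.51 to -0.36. The second passed in 5 of 18, and without oxamate library 4 it was -0.25. In bulk samples of this kind, fewer cells of a type and less RNA per cell cannot be told apart.

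Sirt3 RNA was higher with oxamate, with or without octyl-L-2HG, than with vehicle. Its normalised counts were 1040.4, 903 and 914 with vehicle. They were 1428, 1196 and 1044 with oxamate, where library 4 was highest and library 6 lay just above the highest vehicle library. With oxamate + octyl-L-2HG they were 1234, 1437 and 1392. The means were 953 ± 76.3, 1223 ± 194 and 1355 ± 107 (SD, n = 3 each), and neither treated group overlapped with vehicle. Of all genes, 11.4% lay above vehicle without overlap with oxamate and 18% with oxamate + octyl-L-2HG.

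Against vehicle, Sirt3 rose by 0.37 on the log2 scale with oxamate (SE 0.10, adjusted p = 0.0328) and by 0.49 with oxamate + octyl-L-2HG (SE 0.099, adjusted p = 0.00133), to 1.29 and 1.40 times the vehicle level. The step from oxamate to oxamate + octyl-L-2HG was 0.12 (interval -0.085 to 0.33, adjusted p = 0.525). The rise with the combined treatment passed in all 18 alternatives, at 0.42 to 0.56. The rise with oxamate alone passed in 10 of 18 and was lost without vehicle library 2 (0.33) or 3 (0.33), oxamate library 4 (0.23, adjusted p = 0.0572) or 5 (0.38), or combined library 8 or 9 (0.37 each). It was also lost among genes with a mean of at least 100 (0.35, adjusted p = 0.0503), where Sirt1 was called instead (-0.34, adjusted p = 0.0402), and in the fit of only the 2 groups (0.37, adjusted p = 0.0974). The step from oxamate to the combined treatment ran from 0.015 without oxamate library 6 (adjusted p = 0.958) to 0.25 without oxamate library 4 (adjusted p = 0.0221), where 17.9% of all genes were called, and it passed with no other library left out.

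**Figure D2:**
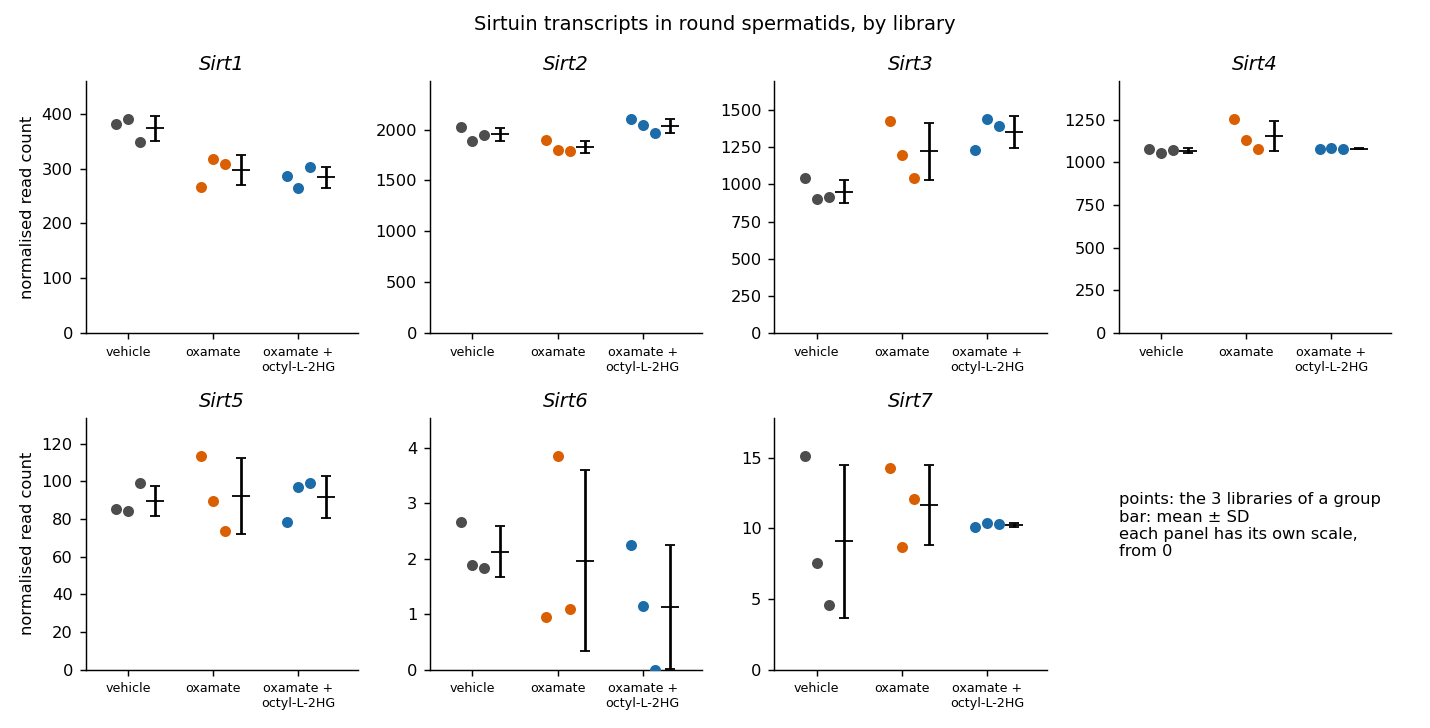
Normalised read counts of the 7 sirtuins in the 3 libraries of each group, each panel on its own scale from 0, with the mean ± SD beside the points. Sirt1 lies below and Sirt3 above the vehicle libraries in both treated groups, while Sirt4, Sirt5 and Sirt7 overlap between groups.

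Counts over the 7 sirtuins are set beside those over all genes tested. Between oxamate and vehicle 1 sirtuin rose (Sirt3) and none fell, where 5.19% of all genes were called (3.97% rose and 1.22% fell). Between oxamate + octyl-L-2HG and oxamate edgeR called 0 of 7, where 11.2% of all genes were called (3.18% rose and 8.06% fell). At an unadjusted p under 0.05 there were also 0 of 7, beside 23.6% of all genes, and DESeq2 called 0 of the 5 to which it gave an adjusted p. Between oxamate + octyl-L-2HG and vehicle, Sirt3 rose and Sirt1 fell, beside 18% of all genes (7.48% rose and 10.6% fell). The same 2 were called in the joint test of any difference among the 3 groups, as were 19.8% of all genes. Of the 7 sirtuins, 4 (Sirt1 to Sirt4) had a mean normalised count of at least 100. Among these 1, 0 and 2 were called in the 3 comparisons (25.0%, 0.0% and 50.0%), beside 9.67%, 19.8% and 29.5% of all such genes. Median log2 differences of the 7 were 0.055, -0.087 and 0.016 in these 3 comparisons, and those of all genes tested were -0.011, -0.038 and -0.045. The comparisons share libraries, so their values are not independent of each other.

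**Figure D3:**
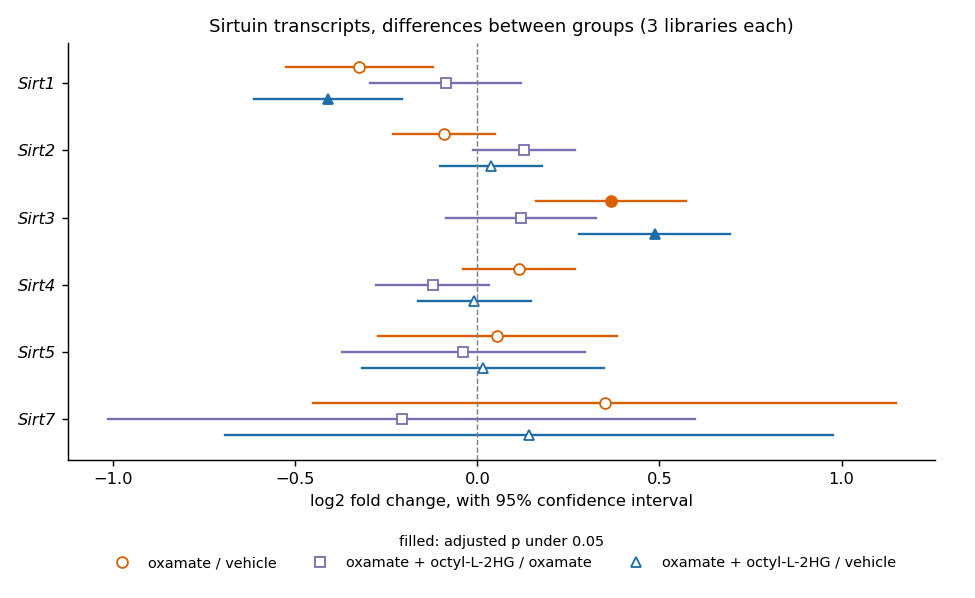
Log2 fold change with its 95% confidence interval for 6 sirtuins in the 3 comparisons; filled symbols have an adjusted p under 0.05. Sirt1 lies to the left and Sirt3 to the right of 0 against vehicle, and Sirt7 has the widest intervals. Sirt6 is left out because its libraries held 0 to 4 counts.

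The proportion of Sirt3 to Sirt1 reads can be read within each library, without scaling between libraries; this ratio was computed after the values were seen and was not tested. With vehicle there were 2.72, 2.32 and 2.63 Sirt3 reads per Sirt1 read. With oxamate there were 5.37, 3.77 and 3.38, and with oxamate + octyl-L-2HG 4.31, 5.45 and 4.604. Both treated groups lay above the vehicle libraries. This follows from Sirt3 lying above and Sirt1 below vehicle in every treated library, so it adds no separate support. The highest oxamate value was that of library 4. Per length, Sirt3 made up 15.3% of the summed sirtuin level with vehicle, 19.1% with oxamate and 20.2% with oxamate + octyl-L-2HG. The share of Sirt1 was 4.34%, 3.36% and 3.07%, and that of Sirt2 47.5%, 43.2% and 46.0%.

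Sirt2, the most abundant member, stayed within a narrow range. Its normalised counts were 2021, 1890 and 1948 with vehicle. They were 1900, 1797 and 1786 with oxamate, and 2099, 2040.4 and 1967 with oxamate + octyl-L-2HG. All combined libraries lay above all oxamate libraries, which 13.4% of all genes did in this direction. The difference of 0.13 on the log2 scale (interval -0.011 to 0.27) did not pass the test (adjusted p = 0.261). It passed with the residual component, the main axis of the spread within groups, as a covariate (0.13, adjusted p = 0.0301), where 22.8% of all genes were called, and in none of the other 17 alternatives. Against vehicle the differences were -0.091 (-0.23 to 0.049) with oxamate and 0.038 (-0.10 to 0.18) with the combined treatment. With 1 library left out the latter ran from 0.019 to 0.064.

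Sirt4 was nearly level in 2 of the 3 groups. Its normalised counts were 1081, 1054 and 1073 with vehicle, and 1076, 1082 and 1080.3 with oxamate + octyl-L-2HG. With oxamate alone they were 1252, 1130 and 1079, so that library 4 was again the highest. The log2 difference between oxamate and vehicle was 0.11 (interval -0.040 to 0.27, adjusted p = 0.471), and with 1 library left out it ran from 0.046 (without library 4) to 0.16 (without library 6). The step from oxamate to the combined treatment was -0.12 (adjusted p = 0.352), and ran from -0.17 (without library 6) to -0.054 (without library 4). Between the combined treatment and vehicle it was -0.0081 (-0.16 to 0.15).

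Sirt5 was measured on 67 to 119 reads per library. Its normalised counts were 85.3, 84.3 and 98.9 with vehicle, 113, 89.5 and 73.4 with oxamate, and 78.6, 96.8 and 99.2 with oxamate + octyl-L-2HG. The oxamate libraries spread over the range of both other groups, with library 4 at the top. Log2 differences were 0.055 (interval -0.27 to 0.38), -0.039 (-0.37 to 0.29) and 0.016 (-0.32 to 0.35) for oxamate against vehicle, combined treatment against oxamate and combined treatment against vehicle, and none passed the test. With 1 library left out the first ran from -0.13 (without library 4) to 0.19 (without library 6), and the second from -0.17 (without library 6) to 0.15 (without library 4), so that both changed sign.

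The nuclear members Sirt7 and Sirt6 were barely sampled. Sirt7 had 17, 8 and 5 raw counts with vehicle, 15, 9 and 11 with oxamate and 9, 9 and 11 with oxamate + octyl-L-2HG. Its log2 difference between oxamate and vehicle was 0.35, and with 1 library left out it ran from 0.022 (without vehicle library 3) to 0.94 (without vehicle library 1), with 0.16 without library 4. Between the combined treatment and oxamate it was -0.21, and ran from -0.39 (without oxamate library 5) to -0.020 (without library 4). Its interval against vehicle ran from -0.45 to 1.15 with oxamate on the log2 scale, so changes of a size like those of Sirt1 and Sirt3 were not detectable at this depth. Sirt6, a histone deacetylase that acts at telomeres and in DNA repair, had 16 counts over all libraries. These were 3, 2 and 2 with vehicle, 1, 4 and 1 with oxamate and 2, 1 and 0 with oxamate + octyl-L-2HG. With libraries at or around 3 counts, no fold is given for Sirt6.

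The reads of a gene can include those of a neighbour that shares its exons. The strand setting of the counting is not given in the sources used here, so reads from exons on opposite strands cannot be told apart. On GRCm38, 12.7% of the Sirt3 exon bases overlapped Psmd13 or Ric8a on the other strand. Psmd13, a proteasome subunit, had a log2 difference against vehicle of 0.047 (interval -0.14 to 0.23) with oxamate and 0.021 (-0.16 to 0.20) with the combined treatment. Ric8a, a chaperone of G protein subunits, had -0.029 and 0.18, and neither gene was called in any comparison. Sirt1 shared 1.2% of its exon bases with Gm16145 and Sirt2 0.8% with Nfkbib, both on the opposite strand. Sirt7 shared 3.5% with genes on the same strand, Mafg among them. Sirt4, Sirt5 and Sirt6 shared none.

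Among 10715 genes with a mean normalised count of at least 100, the genes whose levels followed Sirt1 most closely over the 9 libraries were Fyb (r = 0.961), 4930441J16Rik (0.960) and Gm34599 (0.958). Sirt3 was followed most closely by Map2k3 (0.972), Rnf187 (0.972) and Npc2 (0.972). These are Pearson correlations of log2 CPM, over libraries that share the 3 groups and their depth.

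The genes around NAD, the substrate of the sirtuins, were counted next. Of 20 genes of NAD synthesis and transport, 15 were tested, and of 23 genes that use NAD or related forms, 22. Over these 37, 1 gene rose and none fell with oxamate (2.7%, beside 5.19% of all genes). With oxamate + octyl-L-2HG against oxamate, 2 rose and 1 fell (8.1%, beside 11.2%), and against vehicle 2 rose and 2 fell (10.8%, beside 18%). Of the 37, 16 had a mean of at least 100, and among these 1, 3 and 3 were called (6.2%, 18.8% and 18.8%), beside 9.67%, 19.8% and 29.5% of all such genes. At an unadjusted p under 0.05 there were 6, 7 and 10 of the 37 (16.2%, 18.9% and 27.0%), beside 17.3%, 23.6% and 30% of all genes. Without oxamate library 4 the calls with oxamate numbered 4 (10.8%, beside 9.28% of all genes), where Nmrk1 and Parp12 rose and Nmnat1 and Parp1 fell. From oxamate to the combined treatment they numbered 5 (13.5%, beside 17.9%). Nmrk1, a nicotinamide riboside kinase, is named after its values were seen. The median log2 differences of the 37 were -0.004, 0.016 and -0.049. Nampt, which makes the precursor nicotinamide mononucleotide, was low in RS cells, with a mean of 35.9 normalised counts, and its intervals spanned 0 in each comparison.

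Nmnat1, the nuclear enzyme that completes NAD, had 937 to 1032 normalised counts with vehicle, 833 to 864 with oxamate and 1003 to 1006 with oxamate + octyl-L-2HG. It rose from oxamate to the combined treatment by 0.23 (SE 0.073, adjusted p = 0.0484), and its -0.21 between oxamate and vehicle did not pass (adjusted p = 0.113). The call was lost without vehicle library 2, oxamate library 5 or 6, or combined library 7, 8 or 9, with the difference at 0.21 to 0.23.

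Among the ADP-ribosyltransferases, which use NAD as sirtuins do, Parp12, a mono-ADP-ribosyltransferase, rose with oxamate. Its counts were 99.5 to 103 with vehicle and 147 to 164 with oxamate, a log2 difference of 0.61 (SE 0.12, adjusted p = 0.00285) that passed in all 18 alternatives. With oxamate + octyl-L-2HG they were 118 to 143, above vehicle by 0.36 (adjusted p = 0.0457), a call kept in 9 of 18 alternatives and lost without vehicle library 1, 2 or 3, oxamate library 5 or combined library 8 or 9 (0.28 to 0.39). Parp8 ran from 822 to 950.5 with oxamate and from 629 to 661 with the combined treatment, where it fell by 0.47 against oxamate (SE 0.081, adjusted p = 0.000557) and by 0.37 against vehicle (adjusted p = 0.00241). Both Parp8 results passed in all 18 alternatives.

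Parp1, the poly-ADP-ribose polymerase of DNA repair, rose between oxamate (1726 to 2187) and oxamate + octyl-L-2HG (2343 to 2563) by 0.34 (SE 0.084, adjusted p = 0.0102), which was lost without oxamate library 5 or 6 or combined library 8 (0.28 to 0.31). Nnmt, which methylates nicotinamide, fell by 0.50 against vehicle with the combined treatment (SE 0.14, adjusted p = 0.0143), with vehicle at 181 to 260.3 and the combined treatment at 149 to 186, which overlap. This was lost without vehicle library 1 or 2 or combined library 7 or 8 (-0.45 to -0.39). The other gene that rose against vehicle was Nnt, the mitochondrial NAD(P) transhydrogenase, at a mean of only 11.96 normalised counts; it is named after its values were seen, DESeq2 did not call it (adjusted p = 0.071), and the call was lost without vehicle library 1 or 3 or combined library 8 or 9 (1.00 to 1.05).

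**Figure D4:**
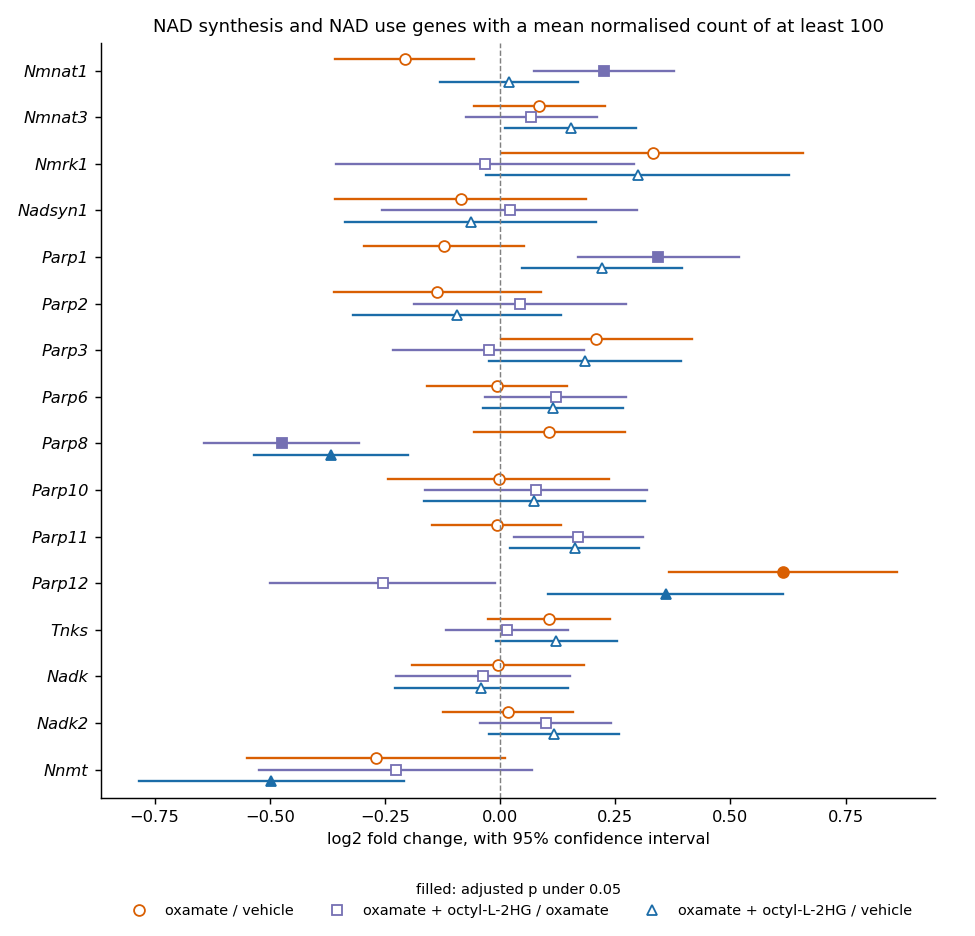
Log2 fold change with its 95% confidence interval for the 16 genes of NAD synthesis and NAD use with a mean normalised count of at least 100, in the 3 comparisons; filled symbols have an adjusted p under 0.05. Parp12 lies furthest above 0, Nnmt and Parp8 lie furthest below, and most genes have open symbols.

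Of 27 partners and targets of the nuclear and cytoplasmic sirtuins, Ccar2 and Hmgcs1 rose with oxamate (7.4%, beside 5.19% of all genes). From oxamate to the combined treatment Rela, Senp1 and Wrn rose and Ep300 fell (14.8%, beside 11.2%). Between the combined treatment and vehicle 7 rose and none fell (25.9%, beside 18% of all genes, of which 7.48% rose and 10.6% fell). Among the 16 with a mean of at least 100, 2, 4 and 6 were called (12.5%, 25.0% and 37.5%), beside 9.67%, 19.8% and 29.5% of all such genes. Hmgcs1, Senp1 and Ep300 are named after their values were seen. The median log2 difference of those 16 in the last comparison was 0.15, that of all such genes 0.03. Ccar2, the protein inhibitor of SIRT1, ran from 630.2 to 691 with vehicle, from 763 to 842 with oxamate and from 812 to 862 with the combined treatment, and rose against vehicle by 0.30 (adjusted p = 0.0266) and 0.34 (adjusted p = 0.00355). The first of these calls was lost without vehicle library 1 or 2, oxamate library 5 or combined library 8 (0.28 to 0.31), and the second passed in all 18 alternatives.

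Rela, the p65 subunit of NF-kappa B and a deacetylation target of SIRT1, rose by 0.66 against vehicle with the combined treatment (SE 0.11, adjusted p = 0.000141), with vehicle at 408 to 500.2 and the combined treatment at 686 to 763. Its rise from oxamate of 0.43 (adjusted p = 0.0102) was lost without oxamate library 5 (0.32) or combined library 7 (0.39). Wrn, a DNA helicase linked to SIRT1 and SIRT6, rose by 0.34 against vehicle (adjusted p = 0.00119) and by 0.30 against oxamate (adjusted p = 0.00595), the latter lost without combined library 8 (0.28, adjusted p = 0.0501). Kat5, the acetyltransferase TIP60, rose by 0.32 against vehicle (adjusted p = 0.00363).

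Of 23 targets of the mitochondrial sirtuins tested, 1 rose with oxamate (Lonp1; 4.3%, beside 5.19% of all genes). From oxamate to the combined treatment Opa1 rose and Acss1 and Pdha2 fell (13.0%, beside 11.2%), and 2 rose and 4 fell between the combined treatment and vehicle (26.1%, beside 18%). Among the 10 with a mean of at least 100, 1, 2 and 3 were called (10.0%, 20.0% and 30.0%), beside 9.67%, 19.8% and 29.5% of all such genes. Lonp1, the matrix protease and a SIRT3 target, had 128 to 162 normalised counts with vehicle, 179 to 194 with oxamate and 190.0 to 212 with the combined treatment. It rose by 0.42 with oxamate (SE 0.12, adjusted p = 0.0339), which was lost without vehicle library 1 or 2, oxamate library 5 or combined library 8 or 9 (0.36 to 0.42), and by 0.48 with the combined treatment (adjusted p = 0.0051), which passed in all 18 alternatives.

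Pdha2, the testis form of the pyruvate dehydrogenase alpha subunit, was at 6146 to 6410 with vehicle, 6574 to 6820 with oxamate and 4817 to 4933 with the combined treatment. It fell by 0.48 against oxamate (SE 0.061, adjusted p = 2.88e-05) and by 0.39 against vehicle (adjusted p = 9.94e-05), in all 18 alternatives. Opa1, which fuses inner mitochondrial membranes, rose from oxamate to the combined treatment by 0.22 (adjusted p = 0.033), and this was lost without oxamate library 5 or combined library 7, 8 or 9 (0.20 to 0.23). Sdhb, a subunit of succinate dehydrogenase, fell by 0.26 against vehicle (adjusted p = 0.0367), lost without vehicle library 1 or 2 or combined library 7, 8 or 9 (-0.28 to -0.18). The other genes called against vehicle were Mlycd, which rose, and Acadm and Acss1, which fell; all 3 lay under a mean of 100 normalised counts (90.9, 12.2 and 18.2) and are named after their values were seen.

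The zinc-dependent histone deacetylases do not use NAD. With oxamate edgeR called 0 of 11, beside 5.19% of all genes. At an unadjusted p under 0.05 there were also 0 of 11, beside 17.3%, and DESeq2 called 0 of the 7 with an adjusted p. From oxamate to the combined treatment 1 fell (9.1%, beside 11.2%), and against vehicle 1 rose and 1 fell (18.2%, beside 18%). Hdac4 ran from 591 to 657 with vehicle, from 569 to 606 with oxamate and from 392 to 462 with the combined treatment, and fell by 0.47 against oxamate (adjusted p = 0.00104) and by 0.54 against vehicle (adjusted p = 0.000114). Hdac3 rose by 0.26 against vehicle (adjusted p = 0.0351), which was lost without vehicle library 2 or 3 or combined library 7, 8 or 9 (0.22 to 0.27).

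**Figure D5:**
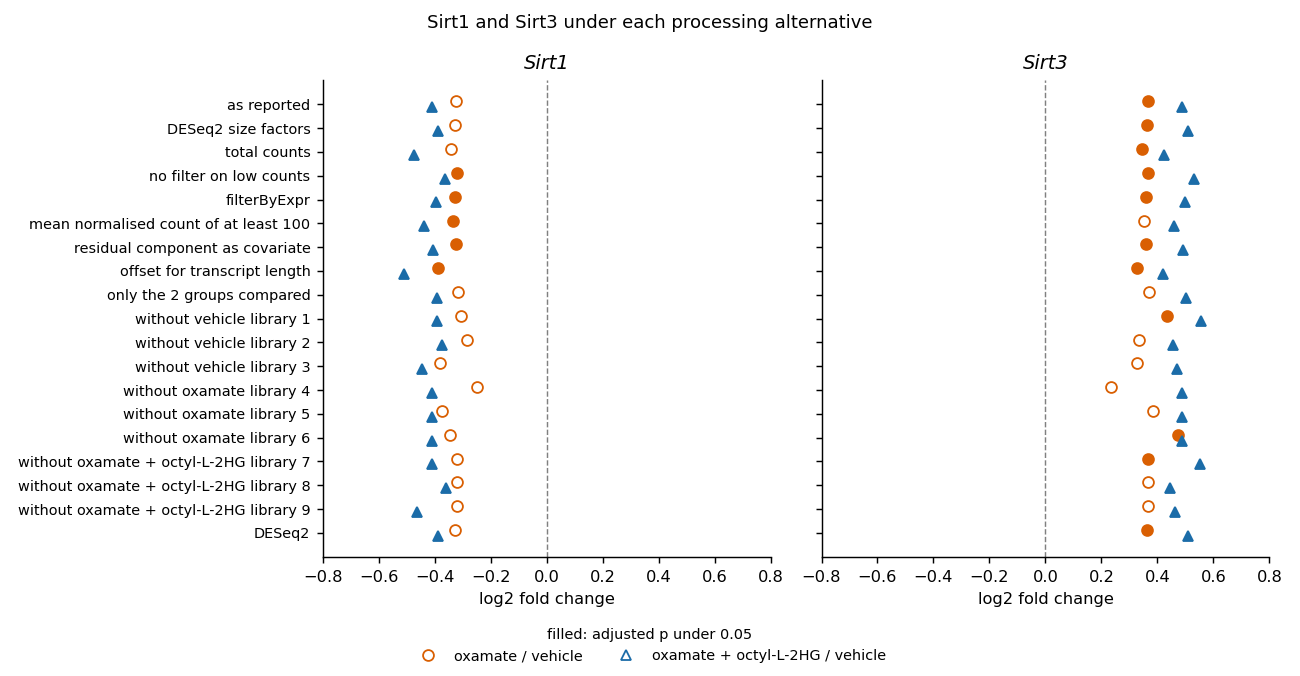
Log2 fold changes of Sirt1 and Sirt3 against vehicle as reported and under each alternative; filled symbols have an adjusted p under 0.05. The triangles of the combined treatment are filled throughout, and the circles of oxamate alone are filled in only some settings.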

How the data were processed

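RNA of RS cells was sequenced from 3 libraries per group with a stranded poly-A kit. Per the labels and the methods, the authors trimmed reads with cutadapt 2.10, aligned them to GRCm39 with TopHat2 2.1.1 and deposited raw read counts per gene from HTSeq 2.01. The authors also deposited a normalised signal, which is the count divided by 1 DESeq2 1.36.0 size factor per library (0.868 to 1.13). Of 55414 genes listed, 6250 had no values.

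For the 25128 genes whose counts summed to at least 10, differences were tested by the quasi-likelihood method of edgeR 4.0.16 (R 4.3.3), with TMM scaling and all 9 libraries in 1 robust fit and Benjamini-Hochberg adjustment over all genes tested (threshold 0.05). The test was first run on simulated data. Adjusted p-values are from this fit unless DESeq2 1.42.0 is named. No pair of libraries agreed within sampling noise. Lengths and overlaps came from GENCODE M21 and promoters from RefSeq, both on GRCm38. All 7 sirtuins matched by symbol, with 9 start sites.

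The members and lists were chosen with earlier results of these data known. Named are all sirtuins, all called genes of the NAD lists and the 4 most strongly called genes of each other list, each with a mean normalised count of at least 100. Likeness to a called sirtuin was ranked by Pearson's r.

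Alternatives were other scalings, filters, thresholds and tests, a residual component as a covariate, an offset for transcript length, fits of the compared groups only, and each library left out. The same alternatives for the other lists' genes were added after seeing the data.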

Additional observations from a re-analysis of the deposited data

How the results depend on the processing

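Sirt3 rose and Sirt1 fell between oxamate + octyl-L-2HG and vehicle under all 21 alternatives for that count. No paired analysis was run, because the labels do not say which libraries of different groups, if any, came from the same cells. For oxamate against vehicle, the number of sirtuins called was 0 at an adjusted p under 0.01 and in the fit of only the 2 groups, 1 among genes with a mean of at least 100 (Sirt1 in place of Sirt3), and 0 to 1 with each library left out. It was 2 at an unadjusted p under 0.05 (beside 17.3% of all genes), without a filter (4.35%), with filterByExpr (7.48%), with the residual component (15.5%) and with the length offset (4.26%). For oxamate + octyl-L-2HG against oxamate it was 1 with the residual component (Sirt2) and 0 to 1 with a library left out (Sirt3, without oxamate library 4), and in the joint test 1 to 2 with a library left out. Called genes of the 2 NAD lists numbered 6, 7 and 10 of 37 in the 3 comparisons at an unadjusted p under 0.05 (16.2%, 18.9% and 27.0%, beside 17.3%, 23.6% and 30% of all genes). With the residual component they numbered 3, 5 and 9 (8.11%, 13.5% and 24.3%, beside 15.5%, 22.8% and 29.9%). With a library left out they numbered 1 to 4, 1 to 5 and 1 to 6, beside 2.68% to 9.28%, 5.64% to 17.9% and 12% to 25.1% of all genes. At an adjusted p under 0.01 there was 1 call in each of the last 2 comparisons (2.7%, beside 5.02% and 10.4%), and in the fit of genes with a mean of at least 100 there were 2 with oxamate (12.5%, beside 10.5%). Levels per kilobase of the median transcript length were 1631 for Sirt2, 1388 for Sirt4, 875.4 for Sirt3, 92.1 for Sirt1, 58.8 for Sirt5 and 6.59 for Sirt7, in the same order.

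Values near 0 changed sign. Sirt4 between the combined treatment and vehicle was 0.0134 with DESeq2 size factors and with DESeq2, 0.0374 without a filter, 0.00536 with filterByExpr, 0.00911 with the length offset, 0.00823 in the fit of 2 groups, and -0.013 to 0.0061 with a library left out. Sirt2 was -0.026 with total counts. Sirt5 in this comparison was -0.047 with total counts, -0.012 with the length offset and -0.056 to 0.115 with a library left out. Sirt5 between the combined treatment and oxamate was 0.0065 without a filter and -0.17 to 0.146 with a library left out, and with oxamate against vehicle -0.129 to 0.191. Sirt7 between the combined treatment and vehicle was -0.165 to 0.729. The cause was not tested. Beside the leave-out fits, total counts ended the calls of Nmnat1, Opa1 and Hdac3 and that of Parp12 with the combined treatment (0.17 to 0.30). The length offset ended those of Ccar2 and Lonp1 with oxamate, Opa1, Sdhb, Hdac3 and Parp12 with the combined treatment (0.18 to 0.36 in the 5 that rose, -0.18 for Sdhb), and the fit of 2 groups those of Ccar2 (0.30) and Lonp1 (0.43) with oxamate, whose differences were no smaller than in the fit of all groups. DESeq2 did not call Parp12 with the combined treatment (0.38, adjusted p = 0.0733). Depth limits Sirt5 (67 to 119 reads per library), Sirt7 (5 to 17) and Sirt6 (0 to 4).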
